A study of Mus musculus with 2 samples.

Results

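The imprinted genes described here, all known from the developing brain, are H19, Dlk1, Meg3, Peg3, Plagl1, Ndn, Snrpn, Mest, Nnat and Grb10. They were taken as a fixed list of 10 genes out of 18193 named on an Affymetrix expression array, through the probe sets that the array's annotation gives to exactly 1 of them. A probe set is the group of short probes that together read 1 transcript. The RNA came from the cerebral cortex of mice labelled postnatal day 0, 3 animals to a pool, with 1 array for each pool. The sample titles say brain. The control pool had the genotype MRTFA-/-;MRTF-BFlox/Flox, in which MRTF-A is labelled null and MRTF-B can be deleted but no Cre is named. Both proteins bind SRF, a transcription factor of cytoskeletal genes, and activate its targets. The double knockout pool was MRTF-A-/-;MRTF-BF/F;GFAP-Cre, so Cre recombinase driven by the GFAP promoter, which is active in radial glia and astrocytes, was added on the same background. A free-text description dates the double knockout pool to day 1, against day 0 elsewhere in its labels. Both groups are labelled MRTF-A null, cells without Cre activity can keep MRTF-B, and whether the pools were littermates is not stated. By the labels, the comparison bears on what Cre-driven deletion of MRTF-B, together with the transgene, adds to loss of MRTF-A.

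The targeted genes were read first. Mrtfb gave a signal of 3359 in the control pool and 2482 in the double knockout pool on its brightest probe set. Mrtfa gave 601.6 and 262.4, 2.30-fold lower in the double knockout pool, although both pools are labelled null for it. Where these probe sets lie relative to the deleted exons was not analysed here, so they do not check the labels, and directions below compare the pools as labelled. Srf differed by -0.31 log2.

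In an imprinted gene, the copies inherited from the mother and the father are marked differently by DNA methylation, and mainly 1 of them is transcribed. Imprinted genes lie in clusters, each under a control region whose methylation was set in the egg or the sperm. Many are growth regulators, and several are strongly transcribed in embryonic and newborn brain. Dlk1, Peg3, Plagl1, Ndn, Snrpn, Mest and Nnat are expressed from the paternal copy, H19 and Meg3 from the maternal copy. Grb10 is expressed from the paternal copy in neurons and the maternal copy in most other tissues, and it is given apart. The array adds the RNA of both copies, so parental origin was not measured here.

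The zinc finger protein ZFP57 keeps the methylation of imprinting control regions by binding the methylated hexamer TGCCGC. The gene for ZFP57 itself read lower in the double knockout pool, by less than 1.5-fold on 1 dim probe set, as given further on. For that reason the hexamer was searched on both strands in the 250 bases before each RefSeq transcription start (build GRCm38.p6). Of 16 start sites of 9 members found in the table, 4 held it, in 3 members, Plagl1, Mest and Meg3. Among all 32851 windows of that length, 8.68% held it, and 9.84% of the 27025 genes had it in a window. With 9 members, and with shares over all windows that were not matched for base composition, these counts are a description only. The motif lay on the opposite strand each time, where the printed strand reads GCGGCA, and those letters are in capitals. All 3 genes lie on the plus strand and are printed 5′ to 3′. Mest has a second start 3 bases on, whose window holds the same matches, counts among the 4 and is not printed. A match, or the lack of one, only describes the letters of these windows, which need not hold the control region of a locus.
Plagl1 chr10:13090582-13090831: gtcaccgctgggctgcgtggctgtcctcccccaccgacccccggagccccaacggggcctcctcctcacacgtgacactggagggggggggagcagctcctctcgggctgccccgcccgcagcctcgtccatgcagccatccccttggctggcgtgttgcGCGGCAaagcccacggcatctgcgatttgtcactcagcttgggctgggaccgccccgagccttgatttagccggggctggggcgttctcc
Mest chr6:30737800-30738049: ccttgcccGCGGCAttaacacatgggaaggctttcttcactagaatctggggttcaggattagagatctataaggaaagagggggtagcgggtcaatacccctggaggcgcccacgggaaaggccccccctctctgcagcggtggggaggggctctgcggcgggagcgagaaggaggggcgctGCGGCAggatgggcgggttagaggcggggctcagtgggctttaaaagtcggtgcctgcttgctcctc
Meg3 chr12:109540746-109540995: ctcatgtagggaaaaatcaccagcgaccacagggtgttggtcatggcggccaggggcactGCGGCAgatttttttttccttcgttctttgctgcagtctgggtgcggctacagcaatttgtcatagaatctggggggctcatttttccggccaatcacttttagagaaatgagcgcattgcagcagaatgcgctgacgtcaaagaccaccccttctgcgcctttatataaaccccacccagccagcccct

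The members differed little between the pools. Of the 10 genes, 8 were measured, meaning that a probe set of their own reached a floor of 179 signal units, the median of all signals, on at least 1 array. All 8 reached it on both. On the brightest probe set of each gene, 3 were higher and 5 lower in the double knockout pool, with a median of -0.02 log2 and a range from -0.25 to 0.16. The largest of these differences was 1.19-fold. Past 1.5-fold there were 0 members in either direction. Of all 11636 measured genes, 0.37% were higher by 1.5-fold or more and 0.773% were lower by as much, 43 and 90 genes, or 66 and 70 with quantile-normalized arrays and 60 and 72 with loess centring. The members' count of 0 is near that background and is not a result about them. The direction of Peg3, Plagl1, Ndn, Snrpn, Nnat and Meg3 turned under at least 1 alternative setting, and after quantile normalization or loess centring 1 of the 6 paternally expressed members was higher, so the split has no firm direction. With 1 array per pool there is no replicate, no test was made, and differences between animals are hidden. In RNA from pooled tissue, fewer cells of a type and less RNA per cell cannot be told apart.

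**Figure D1:**
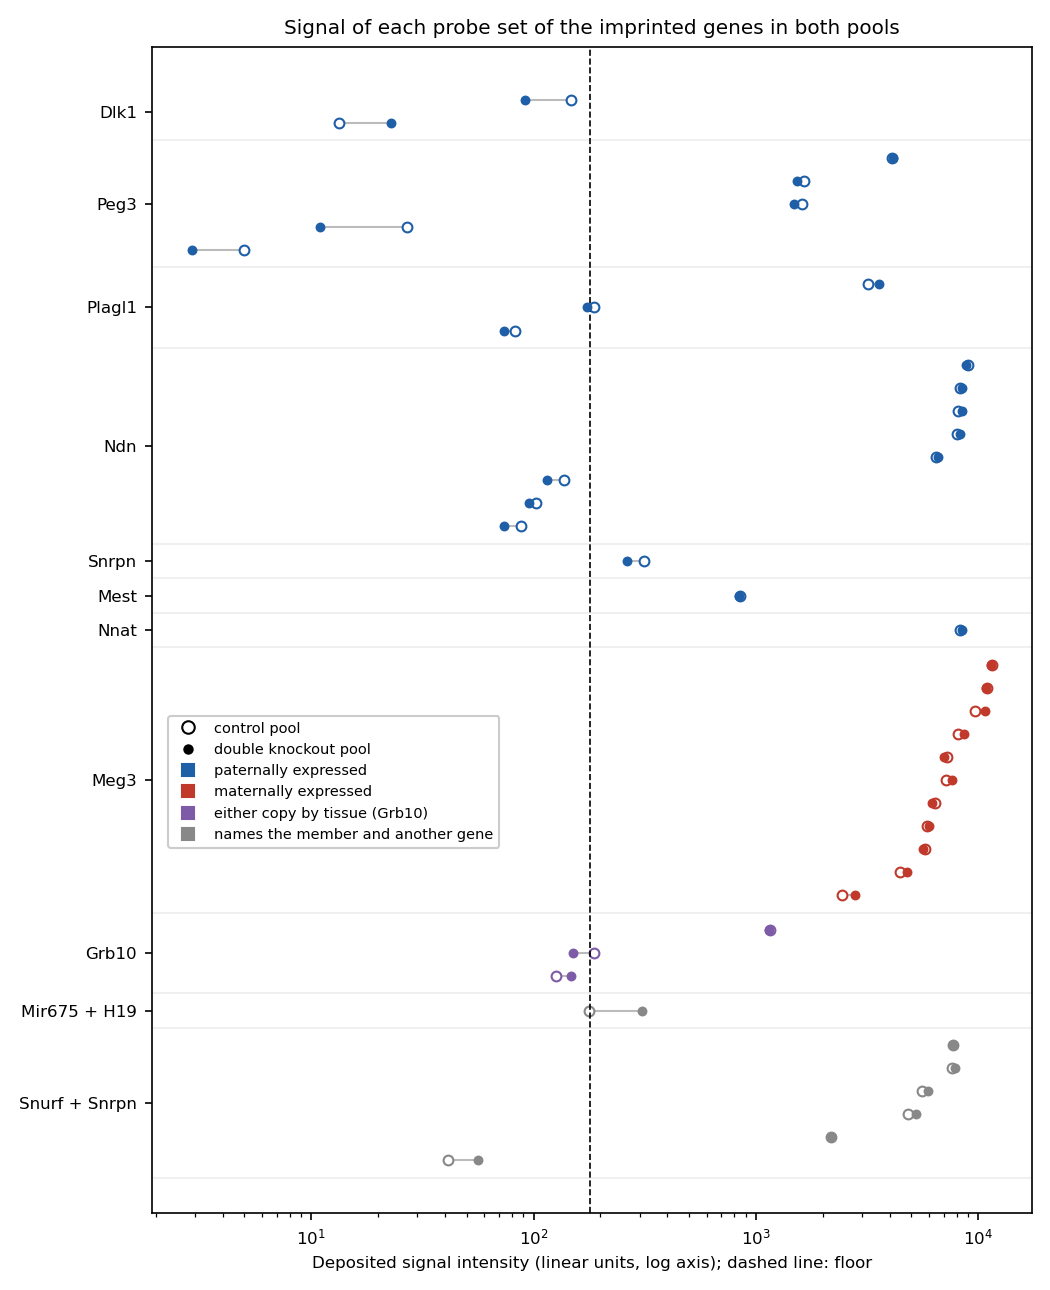
Deposited signal (linear units on a log axis) of every probe set that names a member, open circles for the control pool and filled circles for the double knockout pool, with the floor of 179 dashed. Blue marks paternally expressed genes, red Meg3, purple Grb10 and grey probe sets naming a further gene. Most pairs nearly coincide above the floor, while both Dlk1 probe sets lie below it and the probe set naming H19 with Mir675 goes from 178.0 to 308.0.

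The 35 probe sets of their own comprised 24 that reached the floor on both arrays, 2 on the control array alone, and 9 on neither. Of the 24, 13 were higher and 11 lower. Their median was 0.01 log2, with a range from -0.25 to 0.19. The differences had an SD of 0.10 over these probe sets. Over all 18877 such probe sets of all named genes the median was 0.0031 and the SD 0.20. The members are bright, and 21 of their probe sets were among the 25% of highest mean signal. There the SD was 0.13 over all probe sets naming 1 gene and 0.08 over those 21. Of the 21, 11 read Meg3 and 5 read Ndn. The smaller SD thus comes largely from repeated reads of few genes and does not show the members to be steadier. Probe sets of 1 gene share their RNA and are not replicates. As a yardstick for spread within a gene, the SD between probe sets of the same gene, pooled over 4858 genes with several, was 0.18 log2. Of the 8 measured members, 7 differed by less than that, as did 72.8% of all measured genes.

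**Figure D2:**
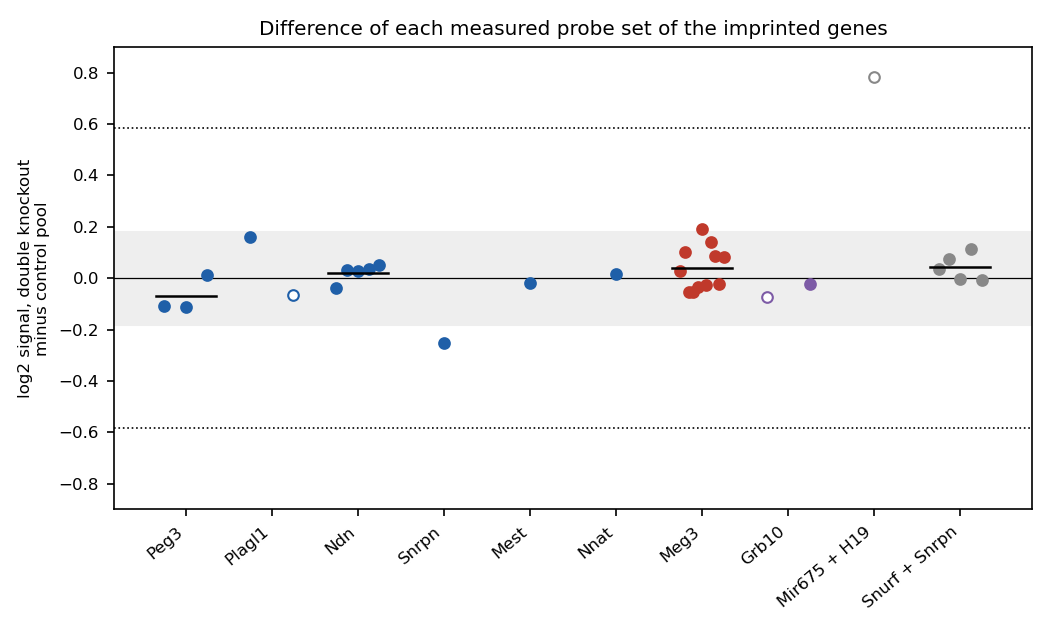
Difference in log2 signal (double knockout minus control pool) of each measured probe set, filled where both arrays reached the floor and open where 1 did. Black lines are means over the filled points of a gene, the grey band is 0.18 on either side of 0, and dotted lines mark 1.5-fold. Points outside the band belong to Snrpn at -0.25, Meg3 at 0.19 and the probe set naming H19 with Mir675 at 0.78.

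The paternally expressed members had a median of -0.0037 log2 over 6 measured genes, 3 higher and 3 lower, beside 0.01 over all measured genes. That median is too close to 0 to have a direction, and it changed sign to 3.7e-05 without centring.

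Plagl1, also called Zac1, encodes a zinc finger transcription factor that restrains proliferation and acts on other imprinted genes. Its bright probe set read 3186 in the control pool and 3566 in the double knockout pool, 1.12-fold higher. This was the highest member, at 0.16 log2. That probe set carries the suffix for possible cross-hybridisation. A second probe set, near the floor, read 186.7 and 173.1, and another read 82.3 and 73.5, under the floor. Without the marked probe set the Plagl1 value was -0.06, so its direction rests on 1 probe set.

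Peg3 encodes a large zinc finger protein linked to growth and maternal behaviour. Its brightest probe set read 4098.5 and 4142, a difference of 0.01 log2. A pair of probe sets made from 1 sequence record read 1643 and 1605 in the control pool and 1530 and 1490 in the double knockout pool, differing by -0.11 each. These 3 averaged -0.07 ± 0.07 (SD over probe sets), and the other 2 stayed at or below 27.1. Peg3 was thus level on its brightest probe set and slightly lower on the other measured ones, all within the yardstick.

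Ndn encodes necdin, a MAGE-family protein of postmitotic neurons that restrains the cell cycle. Its brightest probe set read 9021 in the control pool and 8813 in the double knockout pool. The other 4 bright ones read 8052, 8269, 6433 and 8114 in the control pool and 8243, 8458, 6606 and 8419 in the double knockout pool. Those 4 were slightly higher and the brightest slightly lower. Their mean was 0.02 ± 0.03 (SD, 5 probe sets), with a range from -0.04 to 0.05. A further 3 read between 73.7 and 136.8 on both arrays, under the floor.

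Nnat encodes neuronatin, a small membrane protein of the endoplasmic reticulum that is abundant in developing brain. Its only probe set read 8308 and 8416, a difference of 0.01 log2. Mest, an enzyme of the alpha/beta hydrolase fold found in growing tissue, read 847.7 and 838.8 on its only probe set, a difference of -0.02. Both genes were level between the pools.

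Snrpn encodes SmN, a splicing protein of neurons. The probe set that names it alone read 313.6 in the control pool and 263.9 in the double knockout pool, 1.19-fold lower, the lowest member at -0.25 log2. A further 6 probe sets name Snrpn together with Snurf, the upstream reading frame on the same transcript, and fall outside the rule. Their brightest read 7650 and 7855, and another 7744 and 7741. The 5 of these above the floor ranged from -0.0070 to 0.11 log2, and the sixth read 41.3 and 56.3. The dim single-gene probe set was thus lower while the bright joint ones were level or slightly higher, and the lower Snrpn value rests on 1 dim probe set.

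Dlk1 encodes a transmembrane protein with EGF-like repeats, related to Notch ligands. It was not measured. Its probe sets read 147.8 and 13.3 in the control pool and 91.2 and 22.9 in the double knockout pool, all under the floor. They differed in direction, and no fold is given.

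Grb10 encodes an adaptor that dampens insulin and IGF receptor signalling. Its brightest probe set read 1160.1 and 1143.7, a difference of -0.02 log2. Another read 188.0 and 150.1 and reached the floor in the control pool only, at least 1.05-fold lower, and the last read 126.8 and 148.1, under the floor.

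Of the maternally expressed members, Meg3 was measured and H19 had no probe set of its own. Meg3 is a long noncoding RNA from the cluster that also holds Dlk1. All 11 of its probe sets were above the floor, from 2433 to 11536.6 in the control pool and from 2784.5 to 11392.6 in the double knockout pool. The brightest differed by -0.02 log2. Over all 11 the lowest was -0.05, the median 0.03 and the highest 0.19, with 6 higher and 5 lower and a mean of 0.04 ± 0.08 (SD). The highest belonged to the dimmest probe set, at 2433 and 2784.5. Meg3 was thus slightly lower by its brightest probe set and slightly higher by its mean, both within the yardstick.

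H19 is a long noncoding RNA of fetal tissues that carries the hairpin of a microRNA, Mir675, within it. The annotation gives its only probe set to both names, so it fell outside the rule and no gene value is drawn from it. It read 178.0 in the control pool, just under the floor, and 308.0 in the double knockout pool, at least 1.72-fold higher. Among probe sets naming a member and reaching the floor on an array, no other differed by 1.5-fold.

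**Figure D3:**
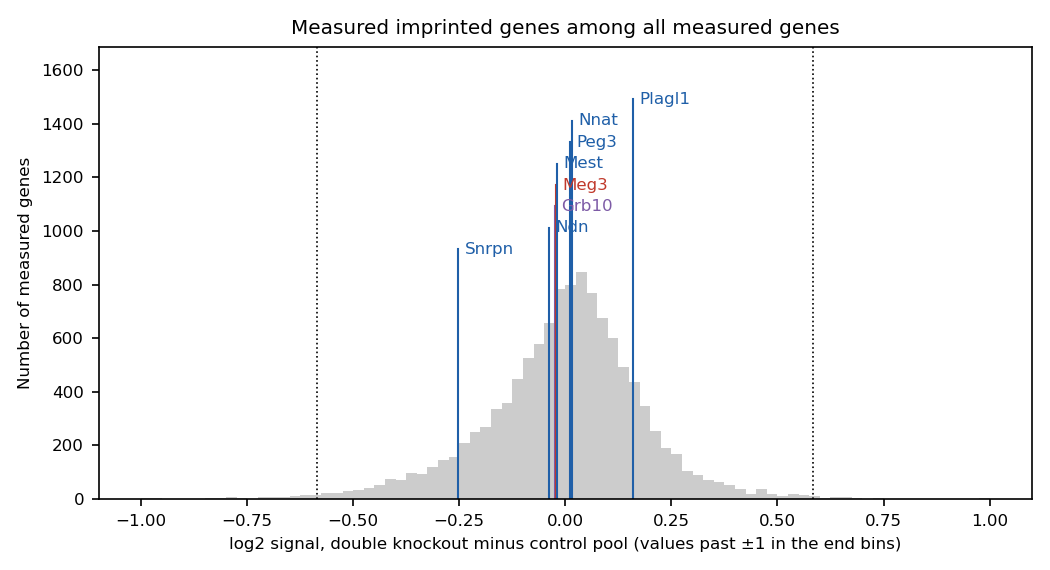
Number of measured genes (grey bars) by difference in log2 signal, with the 8 measured members as vertical lines at their own difference and line height without meaning. Dotted lines mark 1.5-fold, and the members lie between -0.25 (Snrpn) and 0.16 (Plagl1).

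Genes of the same loci were then read beside the members. In the H19 locus, Igf2, a fetal growth factor listed as paternally expressed, read 2263 and 3414. Igf2 was thus higher by 0.59 log2 in the double knockout pool, just past 1.5-fold, and the copy read was not measured. Its second probe set read 152.9 and 137.3, under the floor. Cdkn1c, a maternally expressed inhibitor of the cell cycle from the neighbouring domain, read 309.9 and 187.7, the latter close to the floor, 1.66-fold lower. Kcnq1ot1, the paternally expressed noncoding RNA that silences that domain, differed by -0.05 on its brightest probe set and averaged -0.06 ± 0.01 (SD over 3 probe sets). Igf2 and Cdkn1c thus went in opposite directions in adjacent domains while Kcnq1ot1 hardly differed. The Igf2 value was under 1.5-fold after quantile normalization, at 0.56, after loess centring, at 0.55, and with a pseudocount, at 0.55. That of Cdkn1c was -0.42 with a pseudocount. Ins2, Ascl2, Kcnq1, Phlda2 and Slc22a18 were under the floor on both arrays.

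Markers of other tissue differed between the same pools. Igf2 is strongly expressed in the meninges. Markers of the meninges were higher in 11 of 11 measured genes out of 12, with a median of 0.23 and a lowest difference of 0.0060. Their summed signal was 6508 in the control pool and 7791 in the double knockout pool. Over all measured genes 6158 were higher and 5478 lower. The list was chosen with earlier results of these data known, so its shared direction is a description only. The differences of Aldh1a2, Islr and Ogn were 0.68, 0.53 and 0.51, though the 2 Ogn probe sets averaged 0.27 ± 0.34 (SD). Crabp2 was under the floor, and Slc6a13 was under it in the control pool only. Their part in the Igf2 value and in the probe set naming H19 with Mir675 was not tested.

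Beside Meg3, the noncoding RNAs Rian and Mirg, which run along the same cluster, read 8426 and 7711, and 1136 and 1083. Rian was lower on each of 4 probe sets, and averaged -0.09 ± 0.07 (SD). The 2 Mirg probe sets went in opposite directions, -0.07 and 0.13. Usp29, which shares a control region with Peg3, read 652.2 and 649.0, a difference of -0.01, and Zim1 was under the floor.

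Around Ndn and Snrpn, Magel2, a MAGE gene next to Ndn, read 315.8 and 407.3, 1.29-fold higher. Mkrn3, a ring finger gene, read 645.4 and 734.3, 1.13-fold higher. Ube3a, a ubiquitin ligase expressed from the maternal copy in neurons, averaged -0.08 ± 0.24 (SD over 5 probe sets) with both directions among them. Peg12 was under the floor. Magel2 and Mkrn3, each read by 1 probe set, were higher while their neighbour Ndn was level.

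At the remaining loci, genes beside Plagl1 read 0.12 (Phactr2) and -0.06 (Sf3b5) log2, the latter 0.04 without probe sets marked for cross-hybridisation. Beside Mest, Copg2 read 0.06 and Cep41 0.27, the latter 0.03 as a mean over its measured probe sets, and Klf14 was under the floor. Blcap, in whose intron Nnat lies, read 0.10, and Ctnnbl1 0.13. Beside Grb10, Cobl read 0.09, and Ddc, under the floor in the double knockout pool, was at least 1.33-fold lower. The genes without a probe set of their own were Rtl1, Dio3, Begain, Zfp264 and Snurf.

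**Figure D4:**
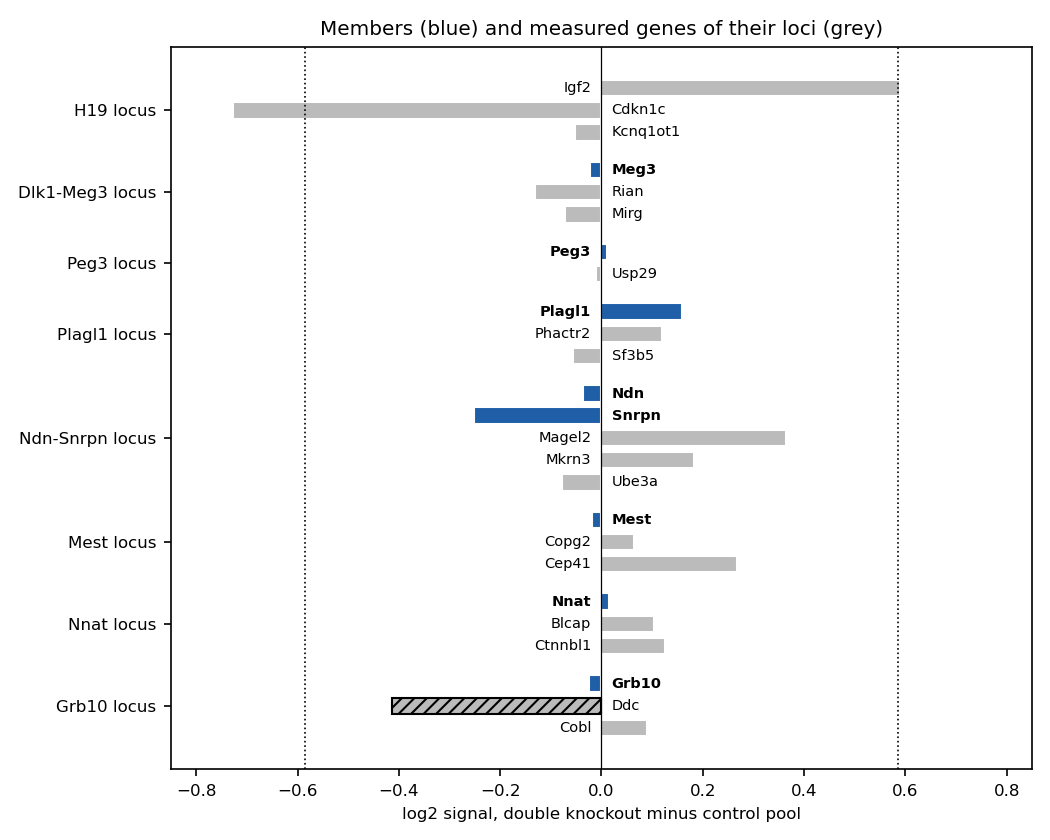
Difference in log2 signal of the members (blue) and of measured genes of their loci (grey), with a hatched bar where only 1 array reached the floor and dotted lines at 1.5-fold. The bars of Igf2 at 0.59 and Cdkn1c at -0.73 are the longest, and those of the members are short.

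Other imprinted genes differed little as lists. Of 24 further genes listed as paternally expressed 15 were measured, 5 higher and 10 lower, with a median of -0.05 log2. Of 26 further genes listed as maternally expressed 14 were measured, 9 higher and 5 lower, with a median of 0.06, beside 0.01 over all measured genes. Whether the genes of either list are imprinted in this tissue was not measured. Past 1.5-fold there was 1 higher gene in the first list, Igf2, and 1 lower in the second, Cdkn1c. Of all measured genes 0.37% were higher and 0.773% lower by as much. With a pseudocount neither Igf2 nor Cdkn1c was past 1.5-fold, so these counts are not firm. Lowering the floor to the 25th percentile turned the maternal median to -0.01. Of further genes, Sfmbt2, Mcts2 and Zdbf2 differed by -0.33, -0.23 and -0.19, and Inpp5f by 0.18, or 0.09 ± 0.12 (SD) over its 2 probe sets. Osbpl5, in the same domain as Cdkn1c, read 199.8 and 269.2, near the floor, higher by 0.43 or by 0.24 with a pseudocount. Nap1l4, of that domain too, differed by 0.14, and Trappc9 by 0.19. Igf2r, a receptor that clears Igf2 and is listed as maternally expressed, read 713.8 and 589.4, and its 2 probe sets averaged -0.18 ± 0.14 (SD).

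Genes that set or keep imprints were read next. Of 21 listed, 16 were measured, 13 higher and 3 lower, or 11 and 5 on the mean over probe sets, with a median of 0.08 and none past 1.5-fold. Over all measured genes 6158 were higher and 5478 lower, and no test of the list was made. Only 0.37% of all measured genes were higher and 0.773% lower by 1.5-fold or more, so a count of none is near that background. Zfp57, whose hexamer is shown in the promoter windows of Plagl1, Mest and Meg3, read 288.9 and 207.2, the latter near the floor. Zfp57 was thus 1.40-fold lower on its only probe set, or -0.28 log2 with a pseudocount. Its cofactor Trim28, named with its values already known, averaged 0.16 ± 0.02 (SD over 2 probe sets). Ctcf, the insulator protein that binds the H19 control region, averaged 0.24 ± 0.05 (SD over 2 probe sets), and Arid4b 0.09 ± 0.21 (SD over 2 probe sets). Partners and growth pathway genes had a median of 0.0093 over 17 of 20, 9 higher and 8 lower, with the sign turning to -0.02 on the mean over probe sets. Irs2, a substrate of the insulin and IGF receptors, differed by -0.31, Igfbp2, an IGF-binding protein, by 0.25, and Smn1, needed for spliceosome assembly, by -0.20.

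Among further tissue markers, those of the striatum, which borders the cortex, were lower in 7 of 7 measured genes out of 8, with a median of -0.35 and sums of 8703 and 7009. Drd2, Six3 and Penk differed by -0.42, -0.41 and -0.39. Oligodendrocyte markers were lower in 5 of 5 out of 6, with a median of -0.54, led by Mobp, Mag and Ugt8a at -0.97, -0.71 and -0.54. Over all measured genes 6158 were higher and 5478 lower, and these lists too were chosen with earlier results known. Markers listed for microglia, among them Mrc1, a gene of macrophages at the borders of the brain, were higher in 6 of 8. Their median was 0.20, and Mrc1, C1qc and C1qb were higher by 0.68, 0.46 and 0.37. The 3 C1qb probe sets averaged 0.21 ± 0.14 (SD), and Cx3cr1 and Aif1 were lower, by -0.13 and -0.06. Hypothalamic markers, named because Ndn, Magel2 and Nnat are strong there, had a median of -0.04 (0.0037 after quantile normalization) over 6 of 9, 3 higher and 3 lower, with sums of 1877.0 and 1879.4. Pomc differed by 0.73, Hcrt by -0.34 and Sim1 by -0.10. The Pomc signals were 189.8 in the control pool, near the floor, and 315.9 in the double knockout pool. Its difference ranged from 0.42 to 0.81 over the alternative settings. Avp read 194.4 and 106.7, under the floor in the double knockout pool only, so its lower value is a bound. Pmch and Trh were under the floor. The part of these markers in the members' values was not tested.

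**Figure D5:**
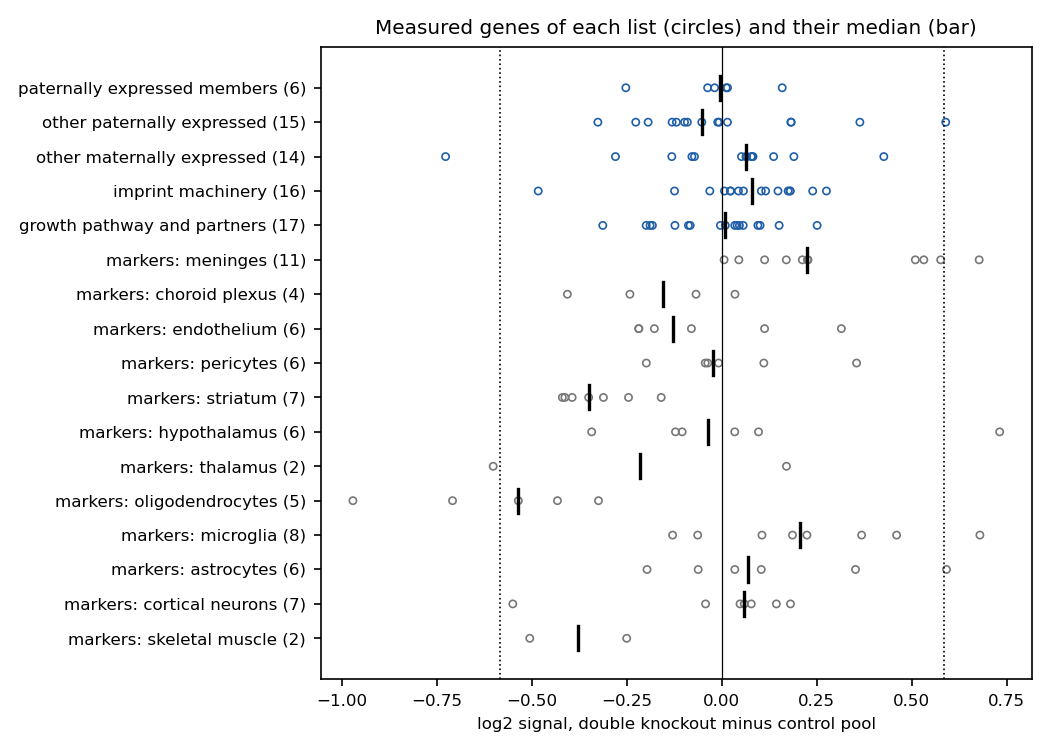
Difference in log2 signal of each measured gene (circles) and the median (bar) of each list, with the number measured in brackets and dotted lines at 1.5-fold. Blue marks the lists of imprinted genes, imprint machinery and growth pathway genes with partners, and grey marks markers of tissues and cells. The median of the paternally expressed members lies at -0.0037, that of meninges markers at 0.23 and that of striatum markers at -0.35.

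The other marker lists had medians of -0.15 for choroid plexus (4 of 6 measured), -0.13 for endothelium (6 of 6), -0.02 for pericytes (6 of 6, 0.04 after quantile normalization), -0.22 for thalamus (2 of 5), 0.07 for astrocytes (6 of 6) and -0.38 for skeletal muscle (2 of 6), and blood had 0 of 5 measured. Summed signals in the control and double knockout pools rose for choroid plexus (13273.6 and 13481.1), endothelium (3216.8 and 3248.8), pericytes (6713.6 and 7405.3) and thalamus (1257.8 and 1261.7). They fell for astrocytes (26480.2 and 26468) and skeletal muscle (675.9 and 534.1). The 2 thalamus genes went in opposite directions, Tcf7l2 at -0.60 and Calb2 at 0.17. With the floor at the 75th percentile, where fewer genes were measured, the medians of choroid plexus (0.03, 1 gene), endothelium (0.08, 2 genes) and thalamus (0.17, 1 gene) turned positive, as did that of thalamus at the 25th (0.07, 4 genes). Of cortical neuron markers 7 of 8 were measured in both pools, with a median of 0.06 (-0.03 on the mean over probe sets). Markers of choroid plexus and hypothalamus were measured too, so this does not show that the tissue was cortex alone. Among single genes, Gfap, an astrocyte gene whose promoter drives the Cre, differed by 0.59, and Slc17a7, a transporter of excitatory neurons, by -0.55. Each had the largest difference of its list and does not stand for it. Of the astrocyte markers 4 were higher and 2 lower, with Slc1a2 at -0.20. Of the cortical neuron markers 5 were higher and 2 lower, or 3 and 4 on the mean over probe sets.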

How the data were processed

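RNA from the cortex of 3 control and 3 double knockout animals was pooled by group and hybridised to 1 array each, starting with 6 ug RNA (per the labels' protocols). Each deposited value is the linear intensity signal of a probe set, for which the submitters' processing notes name MAS5. Its version and scaling target are not given in the sources consulted, and the 2% trimmed mean was 500.002 on both arrays. No column belonged to an unlisted sample. Of 45101 probe sets 64 were controls, 34945 named 1 gene, 932 several and 9160 none. Names came from the platform annotation, and 99.4% of Entrez identifiers matched RefSeq (GRCm38.p6). Platform annotation can be old, and imprinted transcripts that overlap may be read by a neighbour's probe set.

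Signals were centred on the median log2 difference of probe sets bright on both arrays (0.0037), signals under the floor were set to it, and log2 was taken. A gene's value came from its brightest measured probe set. Every difference is double knockout minus control. A value with 1 array under the floor is a bound. SDs are over probe sets of a gene and hold no animal spread. The number of arrays limits precision, and with 1 per group no test was possible. Promoter windows are RefSeq's, found for 9 members by symbol. Work used Python 3.11.15, numpy 2.4.6, pandas 2.3.3, statsmodels 0.14.6 and matplotlib 3.10.9. To test the steps, known differences were put into a copy of the control signals, without noise and only in probe sets well above the floor. These differences were recovered, which checks the arithmetic and not dim probe sets or array noise.

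The members and lists were chosen with earlier results of these data known. Named were all members and genes of their loci, up to 4 further genes of each imprinted list and up to 3 of every other list by size of difference among genes reaching the floor on both, and Mrtfa, Mrtfb and Srf. Alternatives were no centring, quantile normalization, loess centring (span 0.3), another floor (25th or 75th instead of 50th percentile), adding the floor as a pseudocount, the mean over probe sets, leaving out probe sets marked for cross-hybridisation, and Grb10 counted with either parental class. Counting probe sets shared with another gene for the member was added after the data were seen.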

Additional observations from a re-analysis of the deposited data

Results flagged for a closer look

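The probe set that the annotation gives to H19 and Mir675 together lies outside the rule and entered no comparison of the report, only the alternative that counts joint probe sets. It read 308.0 in the double knockout pool against 178.0 in the control pool, at least 1.72-fold higher. It was singled out as a signal outside the measurements used that exceeded the control level by over 1.5-fold. The other 6 probe sets naming a member with a further gene, all for Snrpn with Snurf, did not.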

How the results depend on the processing

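The count of 0 members past 1.5-fold became 1 with the floor at the 25th percentile, through Dlk1 at -0.70, and 1 with joint probe sets counted for the member, through H19 at 0.78, which also moved the maternally expressed median from -0.02 to 0.38. The cause was not tested. Under all its other alternatives that count was 0. The paternally expressed median ranged from -0.03 to 0.01 over 10 alternatives. That of the other paternally expressed genes ranged from -0.05 to -0.03 over 9, and that of the other maternally expressed genes from -0.01 to 0.07 over 9. The paternally expressed median and that of the other maternally expressed genes changed sign. All stayed within the 0.18 log2 spread between probe sets of a gene, which is wide for a median over genes and does not show them to be stable. Snrpn was 0.03 with joint probe sets, and Plagl1 -0.06 without probe sets marked for cross-hybridisation. Dlk1 was unmeasured at the 50th and 75th, and Snrpn at the 75th. The number of genes past 1.5-fold depended on the setting, with 43 higher and 90 lower as reported, 66 and 70 after quantile normalization, 60 and 72 with loess centring, 186 and 666 on lowering the floor to the 25th percentile, 11 and 10 at the 75th, and 20 and 28 with a pseudocount. No paired analysis was possible because each group has 1 array. Signals near the floor limit what can be said of Dlk1, H19 and the dim Snrpn and Grb10 probe sets.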
